A study of Mus musculus with 28 samples.

Results

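The genes described are 39 that drive or mark the cell division cycle, read by gene name out of 45513 gene rows measured in mouse heart. They are 11 genes of DNA synthesis, 21 genes of G2 phase and mitosis, 5 genes of entry into the cycle from G1, and the checkpoint regulators Wee1 and Cdkn1a. All 39 were found in the count table, and all 39 passed the filter on low counts that left 24273 genes for testing. Ventricular myocardium of 28 adult male C57BL/6 mice was sequenced, 1 library per mouse, to ask how chronic kidney disease (CKD) and a gut bacterium act on the heart. CKD was produced at 6 weeks of age by 5/6 nephrectomy, a removal of most kidney tissue in 2 operations, and the control mice had sham surgery. On day 7 each mouse was given by mouth either a single dose of Oxalobacter formigenes (Oxf), a bacterium that consumes oxalate, or the culture medium alone as vehicle. Every group ate the same diet, which carried hydroxyproline (1%), a source of oxalate, and calcium (0.5%), so no group was on plain chow. Vehicle was given to 10 sham-operated mice (sham-vehicle) and 6 with CKD (CKD-vehicle), and the bacterium to 5 (sham-Oxf) and 7 (CKD-Oxf), out of 40 mice in the stated design. The time of day and the day at which hearts were taken are not given in the sources used here, and the mouse numbers run in blocks by group, so anything that followed those numbers cannot be told apart from the group.

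A cell that divides passes from G1 into S phase, where DNA is copied, and then through G2 into mitosis. Cyclins D and E with their kinases release E2F factors, which switch on replication genes such as the Mcm helicase subunits, while genes of mitosis are switched on later through B-Myb and FoxM1 complexes at a promoter element called the CHR. Most cardiomyocytes of the adult mouse have left the cycle, and the cells that still divide in the heart are mainly endothelial, stromal and immune cells. Wee1 is a kinase that holds Cdk1 inactive before mitosis, and Cdkn1a encodes p21, an inhibitor of cyclin-dependent kinases and a target of p53. Both are known to respond to the circadian clock, Wee1 through E-boxes bound by CLOCK and BMAL1 and Cdkn1a through the clock repressor REV-ERB. In bulk tissue, fewer cycling cells and less RNA per cycling cell cannot be told apart.

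Libraries held 19798965 to 65378162 counts. Levels are in CPM, the counts per 1000000 counts of the tested genes in a library, with that total scaled by its TMM normalization factor. Summed markers of cardiomyocytes lay between 19470 and 50240 CPM in every library, as the tissue label states. The library sham-Oxf 1 stood apart, with counts in 15879 genes against 27128 to 33995 in the others. In it, 15 of the 39 genes had no count (4 of DNA synthesis, 9 of mitosis, 2 of G1 entry), where a count of 0 allows up to 0.142 CPM (3 counts, counting error only). Yet 8 of the 39 were highest of all 28 libraries in sham-Oxf 1, among them Mcm4 at 16.0 CPM and Plk1 at 5.74 CPM. Erythroid and marrow markers summed to 108.4 CPM there, from 5 of 11 genes, and to 130.2 CPM in CKD-Oxf 2, against at most 73.1 CPM elsewhere. The part of these in the results was not tested. Only 1 other zero was found, for Birc5 in CKD-Oxf 4. Results that involve sham-Oxf are therefore given with and without sham-Oxf 1 where they differ.

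The division genes were expressed at low levels in the adult ventricle. Levels between genes were compared as CPM per kilobase of exon, and 27 of the 39 lay below 1 on that scale. The median gene tested stood at 1.54, and 30 of the 39 were below it. Mitosis genes were the lowest group, with a median of 0.278 and all 21 below the median gene. Ccnb1, the cyclin that drives entry into mitosis, was the lowest of the 39 at 0.0595 CPM per kilobase, with 0 to 27 counts per library. Its partner kinase Cdk1 stood at 0.0834 and the spindle checkpoint kinase Bub1 at 0.0601. Cenpf, a kinetochore protein, was the highest of the mitosis genes at 1.30, followed by the proliferation marker Mki67 at 0.961. Top2a, the topoisomerase that untangles replicated chromosomes, stood at 0.294.

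Genes of DNA synthesis were higher, with a median of 1.19 CPM per kilobase. They ran from Rrm2, the S phase subunit of ribonucleotide reductase, at 0.339 to Pcna, the sliding clamp of DNA polymerases that also serves in repair, at 3.84. The 6 Mcm subunits, which form a single helicase ring, ranged from 0.479 for Mcm2 to 2.39 for Mcm7. The G1 genes spanned the widest range. Ccne1 and E2f1, which act at the start of S phase, stood at 0.162 and 0.312, whereas the D-type cyclins Ccnd1 and Ccnd2 stood at 6.02 and 9.12 and were the highest of all 39. Cdkn1a at 4.196 and Wee1 at 2.62 were both above the median gene. Between mice of the sham-vehicle group, replication genes varied least (median coefficient of variation 17.3%, lowest for Mcm6 at 9.11%). Mitosis genes varied more (median 29.5%, up to 64.5% for Bub1), and Wee1 (45.4%) and Cdkn1a (57.3%) more than any G1 gene. These values include counting error, which grows as counts fall. Over all libraries Bub1 had 298 counts and Mcm6 9191. The part of counting error in the spread was not tested.

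**Figure D1:**
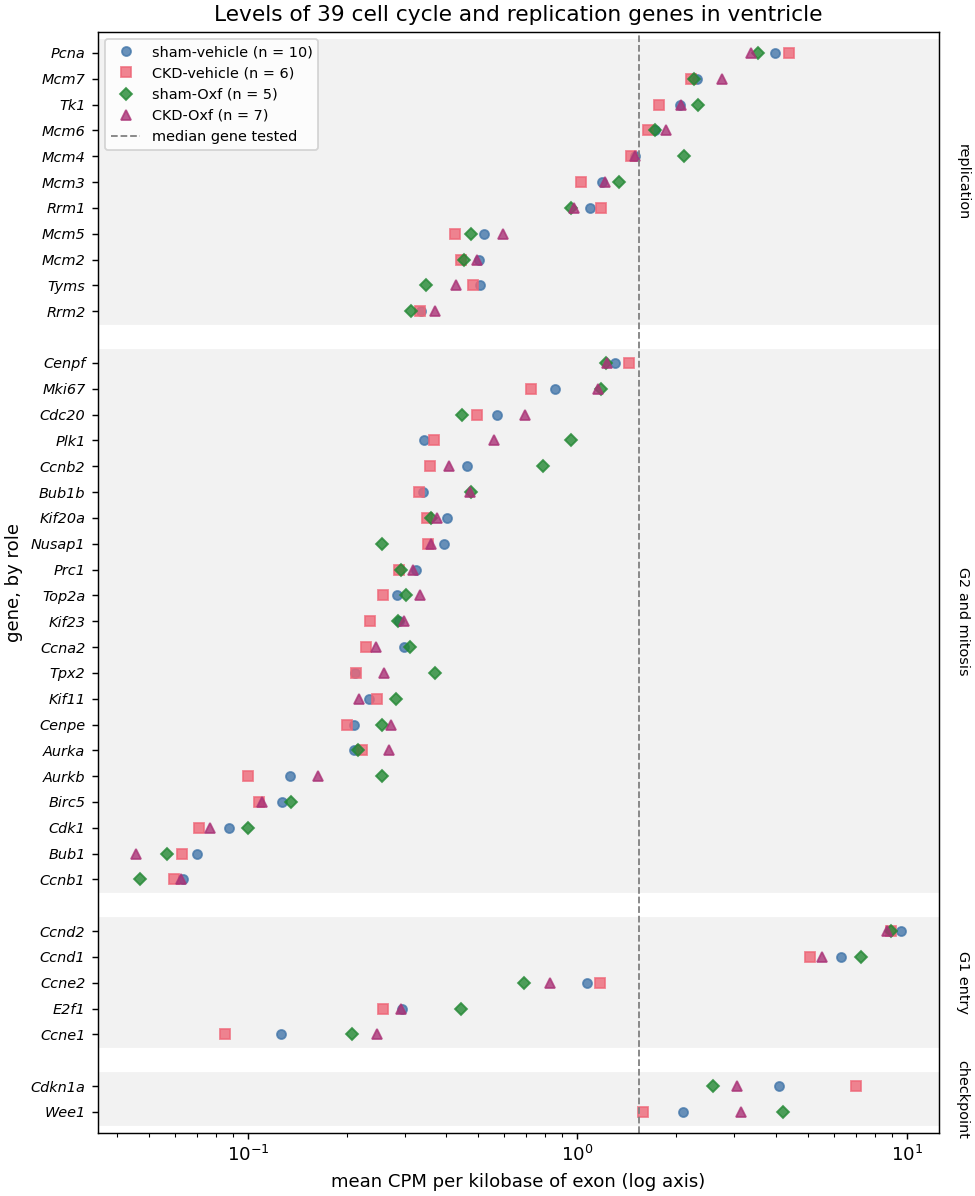
Mean level of each of the 39 genes in each group, in CPM per kilobase of exon on a log axis, with genes sorted by role and level and the dashed line at the median gene tested (1.54). Each marker is the mean of a group, and all 21 mitosis genes lie left of the line while Ccnd1, Ccnd2 and Cdkn1a lie right of it.

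The promoters were searched for the elements described above, and 3 are shown because Mki67, Top2a and Mcm6 hold the CHR or E2F letters whose shares differed between the mitosis and replication genes. RefSeq promoter windows (GRCm38.p6, from 250 bases before the start site to 50 after it) were matched for 30 of the 39. All motifs were searched on both strands. The CHR was searched as TTTGAA and in its other common spelling as TTCGAA, and the CCAAT box by the letters of its name. The E2F core was searched as TTGGCGC, in another spelling of the same core as TTCCCGC, in a further spelling with a changed middle as TTCGCGC, and in the last of these spellings as TTGCCGC. The E-box of the clock was searched in its perfect form as CACGTG, and the D-box as TTATGTAA or as TTACGTAA. The 250 bases before the start are printed on the strand of the gene, and capitals mark each match, read on either strand. The Mki67 window lies at chr7:135716380-135716629 on the minus strand, that of Top2a at chr11:99024190-99024439 on the minus strand, and that of Mcm6 at chr1:128359706-128359955 on the minus strand.
Mki67: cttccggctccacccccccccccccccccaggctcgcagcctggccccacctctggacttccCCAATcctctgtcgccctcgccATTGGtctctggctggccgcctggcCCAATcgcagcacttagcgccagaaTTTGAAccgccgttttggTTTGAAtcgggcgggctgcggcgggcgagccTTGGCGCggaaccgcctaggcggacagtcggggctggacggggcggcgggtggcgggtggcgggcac
Top2a: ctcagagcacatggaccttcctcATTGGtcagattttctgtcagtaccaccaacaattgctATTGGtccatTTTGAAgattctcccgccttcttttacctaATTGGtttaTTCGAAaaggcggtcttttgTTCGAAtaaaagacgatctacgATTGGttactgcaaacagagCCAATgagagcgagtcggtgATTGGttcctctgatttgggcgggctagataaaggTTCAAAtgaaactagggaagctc
Mcm6: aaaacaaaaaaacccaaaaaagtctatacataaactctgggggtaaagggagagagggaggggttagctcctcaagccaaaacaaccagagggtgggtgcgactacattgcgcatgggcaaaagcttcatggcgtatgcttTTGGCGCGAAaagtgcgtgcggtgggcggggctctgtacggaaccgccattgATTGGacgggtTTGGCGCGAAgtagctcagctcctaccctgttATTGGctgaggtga
The Mki67 window has 2 CHR matches 116 and 98 bases before the start site and an E2F core 67 bases before it. In the Mcm6 window E2F matches on opposite strands overlap, from 109 and again from 46 bases before the start. A gene was counted if any of its windows held a match. The CHR letters were present in 13 of 17 mitosis genes (76.5%) and in 2 of 10 replication genes, against 21.7% of all 27025 genes with a window. A CCAAT box was present in 15 of the 17 (88.2%), against 41.1%. The E2F core was present in 6 of 10 replication genes (60.0%) and in 3 of 17 mitosis genes, against 10.9%. An E-box was found in 1 of the 30, that of Tyms, against 8.09%, and no D-box was found, against 1.23%. These are letter matches in short windows. No window was matched for Wee1.

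None of the 39 genes passed the test for kidney disease without the bacterium. In CKD-vehicle against sham-vehicle, 0 of the 39 reached an adjusted p under 0.05 (edgeR quasi-likelihood test, Benjamini-Hochberg over all genes tested), beside 0.00824% of all genes tested. DESeq2 also called 0, beside 0.119%, and at an unadjusted p under 0.05 there was 1 of 39, Cdkn1a, against 4.46% of all genes. The fitted difference was above 0 for 9 of the 39, against 44.4% of all genes, with a median of -0.15 (log2) against -0.03 over all genes. By role, 2 of 11 replication genes, 5 of 21 mitosis genes and 1 of 5 G1 genes were above 0. In the same contrast 8 of 8 cardiomyocyte markers were above 0 (median 0.46) and 0 of 8 endothelial markers (median -0.17), none passing in edgeR, and their part in the counts was not tested. Mki67 differed by -0.25 ± 0.36 (log2, SE) with an adjusted p of 0.954, and Top2a by -0.14 ± 0.44 with an adjusted p of 0.976 (edgeR).

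Cdkn1a had higher values in CKD-vehicle, but the difference did not pass. Its level in sham-vehicle had a lowest value of 6.40, a median of 10.5 and a highest value of 30.3 CPM (n = 10). In CKD-vehicle the lowest was 17.1, the median 23.0 and the highest 37.6 CPM (n = 6). The 6 CKD-vehicle mice all lay above the sham-vehicle median, but 3 sham-vehicle mice reached into their range. The difference was 0.77 ± 0.34 (log2, SE; unadjusted p = 0.0293, adjusted p = 0.954, edgeR). Wee1 lay the other way, at 5.39 ± 1.27 CPM in CKD-vehicle (SD, n = 6) and 7.14 ± 3.24 in sham-vehicle (SD, n = 10), a difference of -0.40 ± 0.24 (log2, SE; adjusted p = 0.954, edgeR) with 5 of 6 CKD-vehicle mice below the sham-vehicle median.

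Wee1 was higher after gavage with Oxf than after vehicle, by about 1 log2 unit in either surgery group. The gene (ENSMUSG00000031016) lies at chr7:110122046-110143286 on the plus strand of mm10. In sham-vehicle the lowest Wee1 value was 3.65, the median 6.46 and the highest 13.8 CPM (n = 10). The 5 sham-Oxf mice had 13.6, 11.1, 18.7, 11.9 and 16.6 CPM. All 5 lay above the sham-vehicle median and 2 lay above the highest sham-vehicle mouse. In CKD-vehicle the lowest was 4.02, the median 5.05 and the highest 7.69 CPM, and in CKD-Oxf 6.93, 10.6 and 15.8 (n = 7). All 7 CKD-Oxf mice lay above the CKD-vehicle median, and 6 of them above the highest CKD-vehicle mouse.

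Averaged over both surgeries, Wee1 was higher with Oxf by 1.00 ± 0.18 (log2, SE), with an adjusted p of 0.00563 (edgeR). It was the only one of the 39 to pass, and 1 of 39 is near the background, since 2.81% of all genes tested passed in this comparison and 1.26% passed as higher. It passed in each of the 28 fits that left out 1 library, with differences of 0.94 to 1.08. Within each surgery the difference was of like size but did not pass, at 1.011 ± 0.24 in sham mice (adjusted p = 0.131) and 1.00 ± 0.26 in CKD mice (adjusted p = 0.167, both edgeR). DESeq2 gave adjusted p-values of 0.0255 and 0.0248 for the same contrasts. The test of the difference between the surgeries gave -0.01 ± 0.35 (log2, SE; adjusted p = 1, edgeR).

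Cdkn1a (ENSMUSG00000023067, chr17:29090976-29100727, plus strand) lay in the opposite direction. The 7 CKD-Oxf mice, with a lowest value of 3.48, a median of 12.5 and a highest value of 16.1 CPM, all lay below the 6 CKD-vehicle mice, the lowest of which had 17.1 CPM. In sham mice the Oxf values were 20.2, 4.71, 7.58, 5.57 and 7.91 CPM. The 20.2 came from sham-Oxf 1, and the other 4 lay below the sham-vehicle median of 10.5. Averaged over surgery the difference was -0.94 ± 0.27 (log2, SE), with an adjusted p of 0.0501 (edgeR) that missed the threshold narrowly. It passed in 8 of 28 fits that left out 1 library, and in 6 of 11 other settings, with differences of -1.10 to -0.19 (log2). It did not pass with no filter on low counts, or with the share of counts from 7SL RNA, a small structural RNA, as a covariate. Nor did it pass with the clock score below as a covariate, or in the fits below that left out more than 1 library. Without sham-Oxf 1 it was -1.19 with an adjusted p of 0.0196 (edgeR). DESeq2 gave 0.0102 and limma-voom with sample weights 0.00302. Within surgeries it was -1.21 ± 0.37 in CKD mice (adjusted p = 0.214) and -0.68 ± 0.38 in sham mice (adjusted p = 0.456, both edgeR), the latter -1.18 without sham-Oxf 1. The interaction was -0.53 ± 0.52 (log2, SE; adjusted p = 1, edgeR), and -0.03 without sham-Oxf 1. A transcript annotated on the opposite strand overlaps 7.68% of the Cdkn1a exons, and whether counting used strand is not stated.

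**Figure D2:**
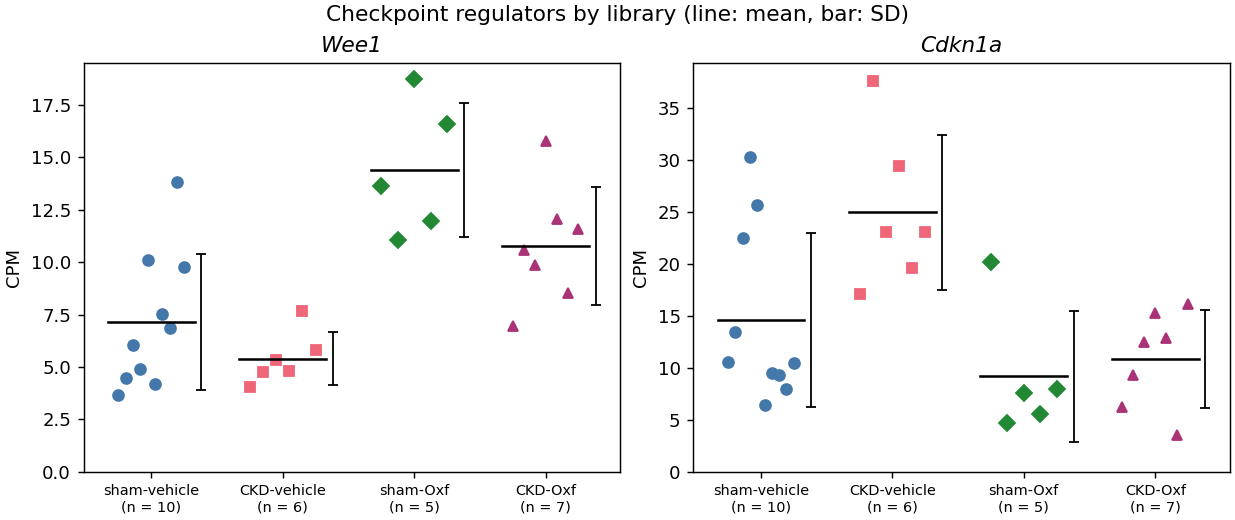
Level of Wee1 and Cdkn1a in each of the 28 libraries in CPM, by group, with the group mean as a line and the SD as a bar. All 5 sham-Oxf mice lie above 11.0 CPM of Wee1, and every CKD-Oxf mouse lies below every CKD-vehicle mouse for Cdkn1a.

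Genes of the circadian clock also differed between the gavage groups. A clock score was the mean log2 CPM of 11 clock output and repressor genes (such as Dbp, Per2 and Nr1d1) minus that of 5 activator-phase genes (such as Arntl and Npas2), each centred on its sham-vehicle mean. Neither Wee1 nor Cdkn1a is in it. After vehicle the score ran from -1.38 to 1.64 among sham and from -2.40 to -0.20 among CKD mice. After Oxf its lowest values were 0.77 (sham) and -0.04 (CKD), with highest values of 1.92 and 1.597. The CKD-Oxf and CKD-vehicle ranges did not overlap. In the contrast averaged over surgery, 8 of the 11 output genes passed as higher with Oxf, beside 1.26% of all genes, and 4 of the 5 activator genes as lower, beside 1.54% (edgeR). With the score as a covariate the Wee1 difference fell to 0.24 (adjusted p = 0.865) and that of Cdkn1a to -0.19 (adjusted p = 0.935, both edgeR), and 0 of 24273 genes passed. Since the score itself differed between the gavage groups, that fit removes part of any gavage difference too. In it 1567 genes had an unadjusted p under 0.05.

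Within groups, Wee1 rose with the clock score in sham-vehicle. Over those 10 mice Pearson's r was 0.82 (two-sided permutation p = 0.00415, adjusted p = 0.0249 over 6 relations) and Spearman's rho 0.76 (permutation p = 0.0149, adjusted p = 0.0894). Without the 2 mice farthest from the median score, sham-vehicle 9 and 10, r was 0.62 (exact permutation p = 0.100), so the relation rests in part on them. The score also went with mouse number: mice 901 to 904 scored -1.38 to -0.52 with 3.65 to 6.04 CPM of Wee1, and mice 907 to 910 scored 0.19 to 1.64 with 6.87 to 13.8 CPM. What the numbers stand for is not given, and the score and mouse number cannot be told apart here. In CKD-vehicle, over 6 mice, r was 0.80 (exact permutation p = 0.0389, adjusted p = 0.117) and rho 0.89 (exact permutation p = 0.0333, adjusted p = 0.100), and r without the 2 farthest was 0.68 (exact permutation p = 0.417). In CKD-Oxf, over 7 mice, r was 0.40 (exact permutation p = 0.373, adjusted p = 0.560) and rho 0 (exact permutation p = 1). Without the 2 farthest, CKD-Oxf 1 and 6, r there was -0.47 (exact permutation p = 0.467).

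Cdkn1a showed no relation to the score that passed. In sham-vehicle r was -0.46 (permutation p = 0.184, adjusted p = 0.368) and rho -0.64 (permutation p = 0.0541, adjusted p = 0.108), with r of -0.32 without the 2 farthest mice. Over the CKD-vehicle mice Pearson's r came to -0.22 with an exact permutation p of 0.640, Spearman's rho to -0.37 with one of 0.497, and r without the 2 farthest to 0.69. Among CKD-Oxf mice these were -0.04 (0.931 by exact permutation), -0.07 (0.906) and -0.31. No correlation was computed over the 5 sham-Oxf mice, since 6 was set as the smallest group. Of 16 other target genes of p53, 0 passed in any comparison (edgeR). Of all genes 2.81% passed averaged over surgery, and at most 0.033% in the other comparisons. Averaged over surgery 7 of the 16 were above 0 with Oxf, 3 of them at an unadjusted p under 0.05. The other 9 were below 0, 1 of them at that level. Of all genes 50.4% were above 0, and 11.5% had such a p in each direction.

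**Figure D3:**
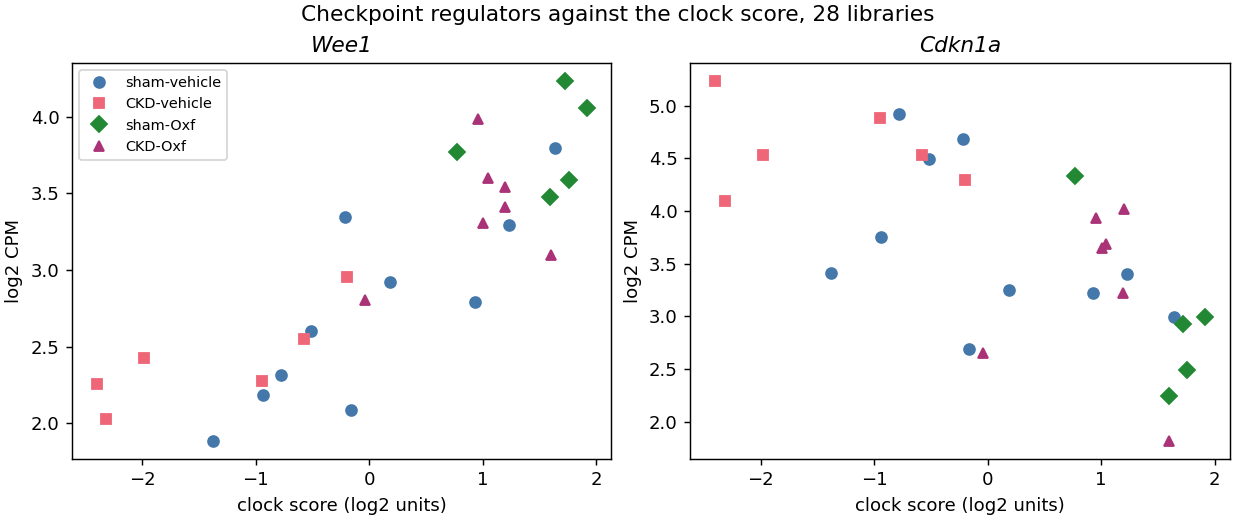
Level of Wee1 and Cdkn1a (log2 CPM) against the clock score (log2 units) in 28 libraries, 1 point per mouse, coloured by group. The CKD-vehicle mice lie at the low end of the score (-2.40 to -0.20) and the sham-Oxf mice at the high end (0.77 to 1.92).

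Of the replication, mitosis and G1 genes, none passed in a gavage comparison in edgeR with all 28 libraries, while DESeq2 and limma-voom called some. In CKD-Oxf against CKD-vehicle 0 of the 39 passed, beside 0.033% of all genes, 30 were above 0, beside 53.2%, and 5 had an unadjusted p under 0.05 (Wee1, Cdkn1a, Ccne1, Mcm7 and Rrm1), beside 13.1% of all genes. DESeq2 called 1 of the 39 there, Wee1, beside 0.783% of all genes. Limma-voom with sample weights called 9, beside 15% (Wee1, Cdkn1a, Ccne1, Ccne2, Bub1b, Kif23, Mcm7, Pcna and Rrm1). In sham-Oxf against sham-vehicle 0 passed, beside 0% of all genes, 20 were above 0, beside 45.1%, and 5 had an unadjusted p under 0.05 (Wee1, Plk1, Mcm4, E2f1 and Tpx2), beside 12.6%. All but Wee1 of these 5 were highest of 28 libraries in sham-Oxf 1. Without it, 3 of the 39 had an unadjusted p under 0.05 (Wee1, Cdkn1a and Ccne1), beside 9.23% of all genes, and the differences were 0.67 for Plk1, 0.03 for Mcm4, 0.25 for E2f1 and 0.28 for Tpx2. DESeq2 and limma-voom each called 1 of the 39, Wee1, beside 0.54% and 0.14% of all genes. Averaged over surgery, 11 of the 39 had an unadjusted p under 0.05, 8 higher and 3 lower, beside 23% of all genes (11.5% in each direction). The fitted difference was above 0 for 28 of the 39 (71.8%), against 50.4% of all genes, with a median of 0.15 (log2) against 0.00. DESeq2 called 4 of the 39 (Wee1, Cdkn1a, Plk1 and Ccne1), beside 8.79% of all genes, and limma-voom 7 (Wee1, Cdkn1a, Plk1, Bub1b, Pcna, Ccne2 and Rrm1), beside 22%. In the same contrast 0 of 8 fibroblast markers were above 0 (median -0.56, 1 passing as lower) and 1 of 8 cardiomyocyte markers (median -0.32, 1 passing as lower, edgeR). Endothelial markers were above 0 for 2 of 8. The share of counts from 7SL RNA, a small structural RNA, ran from 1.83% to 21.0% over the 28 libraries. The part of these in the counts was not tested.

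The split by role in that contrast was 8 of 11 replication genes, 16 of 21 mitosis genes and 3 of 5 G1 genes above 0. Without sham-Oxf 1 and the 2 libraries described below, it was 6 of 11 replication and 12 of 21 mitosis genes, and 22 of the 39 in all. In CKD mice 18 of 21 mitosis genes and in sham mice 13 of 21 were above 0, and without the same 3 libraries the counts were 13 and 9. The contrasts share libraries, so these counts are not independent of each other. Of all genes, 50.4% were above 0 averaged over surgery, 53.2% in CKD mice and 45.1% in sham mice. Without sham-Oxf 1 alone it was 54.5% averaged over surgery and 53.2% in sham mice. The share of all genes without the 3 libraries is not given here, so the counts without them are not set against all genes.

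**Figure D4:**
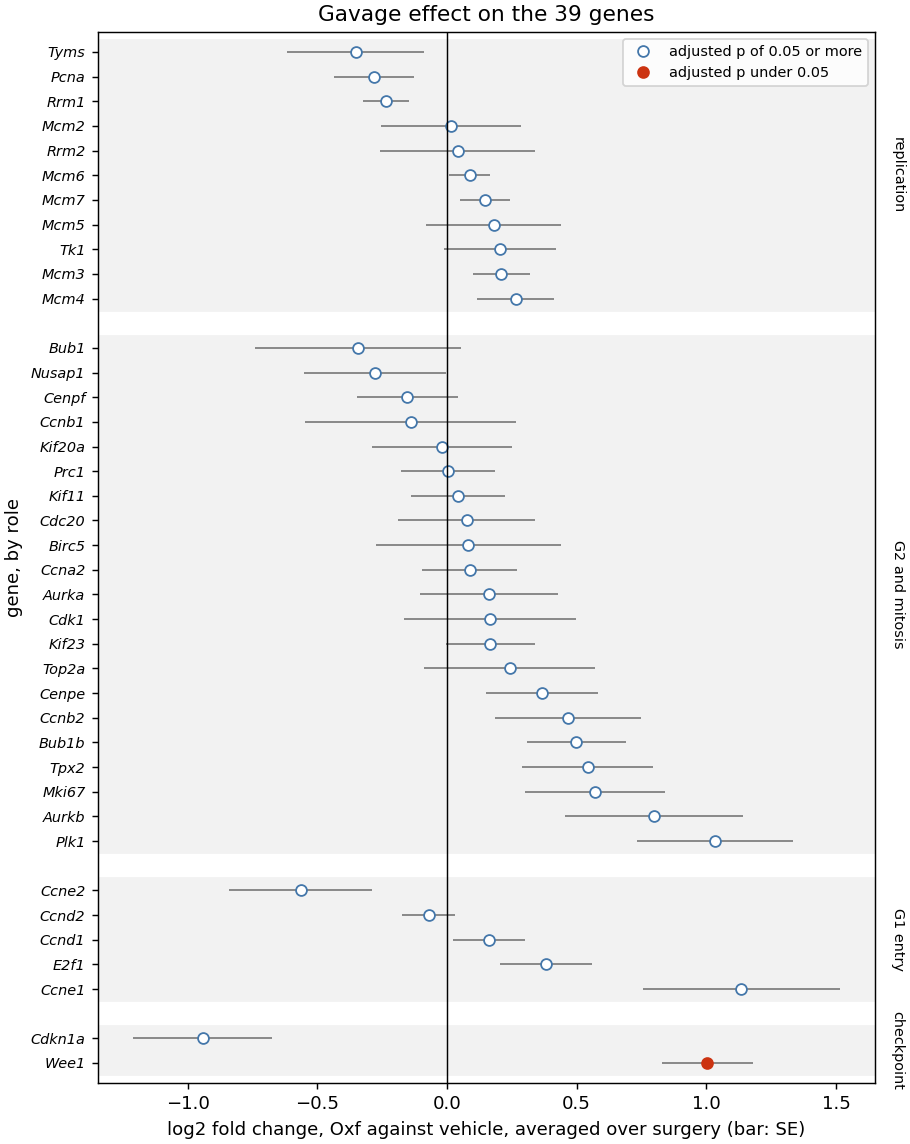
Log2 fold change of each of the 39 genes with Oxf against vehicle, averaged over surgery, with its standard error, sorted by role. Wee1, at 1.00, is the only gene with an adjusted p under 0.05 (filled point), and Ccne1 and Plk1 lie at similar values with wider errors.

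Mki67 and Top2a were highest in 2 Oxf mice. Mki67 (ENSMUSG00000031004, chr7:135689784-135716361, minus strand) stood at 28.3 CPM in sham-Oxf 2 and 28.5 CPM in CKD-Oxf 6, while the other 26 libraries ranged from 3.17 to 14.3 CPM. Top2a (ENSMUSG00000020914, chr11:98992943-99024189, minus strand) was highest in the same 2 libraries, at 7.05 and 6.41 CPM, against at most 3.88 CPM elsewhere. Ccne1, cyclin E1 of the G1 to S step, reached 1.91 and 1.70 CPM there and at most 0.645 CPM elsewhere, and Rrm2 reached 2.57 and 1.56 CPM. Leaving sham-Oxf 1 aside, sham-Oxf 2 was the highest of its group in 16 of 21 mitosis genes, and CKD-Oxf 6 in 14 of 21. The share of all genes highest in these libraries is not given here. Both were also highest of their groups in the mean log2 level of other replication genes and of other G1 and checkpoint genes. Of the 28 libraries sham-Oxf 2 had counts in the most genes, 33995. Cenpf, the mitosis gene with the highest level, did not follow: sham-Oxf 2 had 12.3 CPM, the lowest of that group, and CKD-Oxf 6 had 20.1 CPM.

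Lymphoid markers were highest in the same 2 libraries, and the 7SL share was lowest there (1.83% and 1.95%, against 2.18% to 21.0% in the others). The 14 lymphoid and thymus markers summed to 88.2 CPM (sham-Oxf 2) and 62.9 CPM (CKD-Oxf 6), against 1.95 to 33.6 CPM in the other 26. The group medians were 7.05 (sham-vehicle), 5.22 (CKD-vehicle), 3.405 (sham-Oxf) and 3.84 CPM (CKD-Oxf). Among them, Ms4a1 stood at 20.0 and 14.9 CPM and Cd79a, a part of the B-cell receptor, at 18.1 and 11.8 CPM in these libraries. Genes that define immature thymus cells were at or near 0 in both, with Rag1 and Dntt at 0 and Ptcra and Rag2 at most 0.0675 CPM. Leaving out the 2 libraries (a choice made after seeing the data) took the Mki67 difference averaged over surgery from 0.57 ± 0.27 (log2, SE; adjusted p = 0.199) to 0.06 (adjusted p = 0.902, edgeR). It took the Top2a difference from 0.24 ± 0.33 to -0.28 and that of Ccne1 from 1.14 ± 0.38 (adjusted p = 0.0812) to 0.23 (adjusted p = 0.709, edgeR). Both are Oxf libraries with the highest levels of Mki67, Top2a and Ccne1, so leaving them out had to lower these differences. The falls therefore cannot show what part the lymphoid signal had. The Wee1 difference was 1.06 without the 2 libraries (adjusted p = 0.00848, edgeR). With the 7SL share as a covariate the differences averaged over surgery were 0.032 for Mki67, -0.26 for Top2a and 0.51 for Ccne1. What part the lymphoid signal or the 7SL share had in these values was not tested further.

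**Figure D5:**
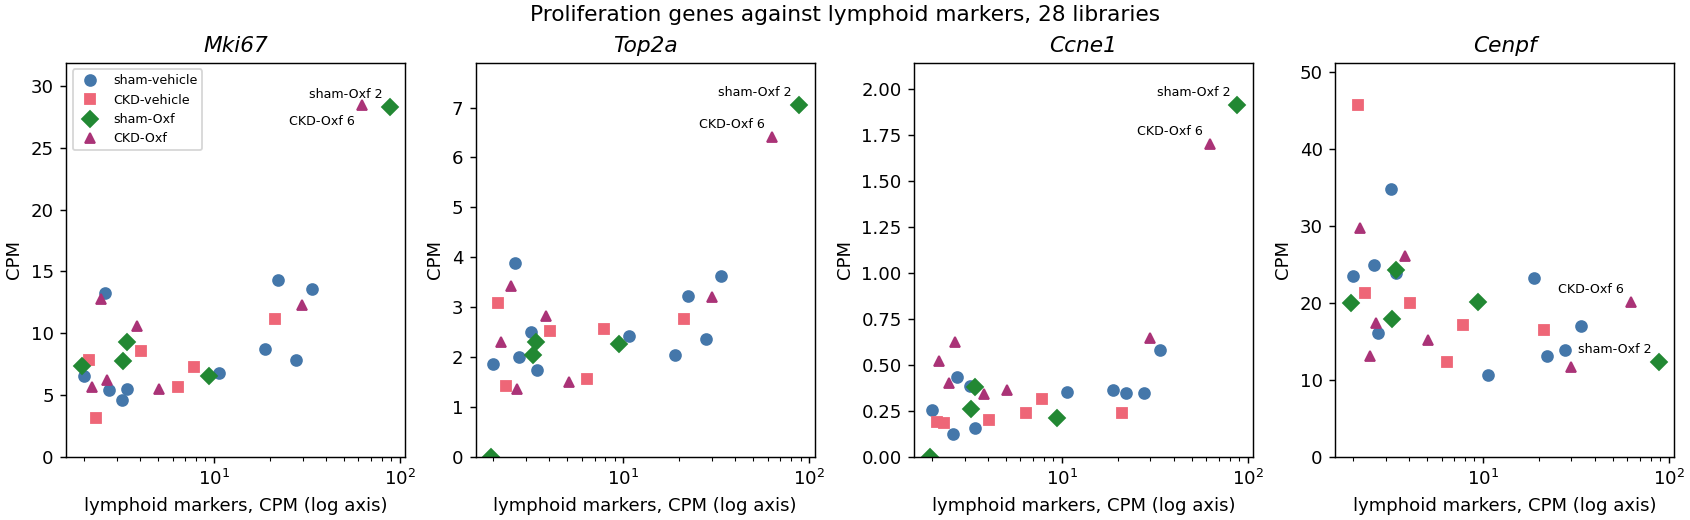
Level of Mki67, Top2a, Ccne1 and Cenpf (CPM) against the summed level of 14 lymphoid and thymus markers (CPM, log axis) in 28 libraries. For the leading 3 genes sham-Oxf 2 and CKD-Oxf 6 lie at the upper right, apart from the rest, and for Cenpf they do not.

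Ccne1 and Plk1, named after their values were seen, came nearest to the threshold after Wee1 and Cdkn1a. The 6 CKD-vehicle mice had 0.181 to 0.313 CPM of Ccne1 and the 7 CKD-Oxf mice 0.339 to 1.70, so the groups did not overlap. Besides Cdkn1a it was the only one of the 39 of which this was true, where 0.478% of all genes tested had groups that did not overlap (with no member, it was 0.128% between the vehicle groups, 0.227% between the sham groups and 0.272% between the Oxf groups), and its difference of 1.52 ± 0.56 did not pass (log2, SE; adjusted p = 0.276, edgeR). In sham mice Ccne1 differed by 0.75 ± 0.52, and by -0.62 without sham-Oxf 2 and CKD-Oxf 6. Its count in sham-Oxf 1 was 0, and without that library the difference in sham mice was 1.04 (log2). Averaged over surgery Ccne1 then passed, at 1.28 (log2; adjusted p = 0.03425, edgeR). It passed in 2 of 28 fits that left out 1 library. Plk1, the kinase that promotes entry into mitosis, differed by 1.03 ± 0.30 averaged over surgery (log2, SE; adjusted p = 0.0536, edgeR). Its 5.74 CPM in sham-Oxf 1 compares with 0.836 to 1.73 CPM in the other 4 sham-Oxf mice, and without that library the difference was 0.64 (adjusted p = 0.114, edgeR).

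Comparisons of surgery under Oxf and over both gavages gave no member past the threshold. In CKD-Oxf against sham-Oxf 0 of the 39 passed, beside 0% of all genes, and 20 were above 0, beside 56.7%. At an unadjusted p under 0.05 there were 3, all lower (E2f1, Mcm4 and Ccnb2), beside 8.23% (5.22% lower). All 3 were highest of 28 libraries in sham-Oxf 1, and without it 0 of the 39 had such a p, beside 6.92% of all genes, with Mcm4 at -0.02 and Ccnb2 at -0.13 (log2). The smallest p was that of E2f1, the activator of replication genes, at -0.59 ± 0.26 (log2, SE; adjusted p = 0.547, edgeR). Its 2.61 CPM in sham-Oxf 1 was the highest of 28 libraries, and without that library the difference was -0.25. Averaged over gavage 0 passed, beside 0% of all genes, 15 were above 0, beside 49.9%, and 4 had an unadjusted p under 0.05, all lower in CKD (Ccnd1, Wee1, Ccnb2 and E2f1), beside 10.6% (5.45% lower). Without sham-Oxf 1 there were 2, Wee1 lower and Cdkn1a higher, beside 13.5%. The smallest was that of Ccnd1, cyclin D1, at -0.35 ± 0.14 (log2, SE; adjusted p = 0.374, edgeR). A neighbour on the other strand overlaps 23.4% of the Ccnd1 exons. Its 47.1 CPM in sham-Oxf 1 was the highest of 28 libraries, and without that library the Ccnd1 difference was -0.28. Cdkn1a then had the smallest p, at 0.76 (log2; adjusted p = 0.244, edgeR). For the interaction of surgery and gavage 0 of the 39 passed, beside 0% of all genes, with 23 above 0, beside 58.7%, and 0 of the 39 at an unadjusted p under 0.05, beside 3.55%. The smallest was that of Mcm7, at 0.34 ± 0.19 (log2, SE; adjusted p = 1, edgeR). DESeq2 called 0 of the 39 in each of these 3 comparisons, beside 0.412% of all genes under Oxf, 0.466% averaged over gavage and 0% for the interaction. Cdkn1a stood at 0.25 ± 0.40 (0.75 without sham-Oxf 1) and Wee1 at -0.42 ± 0.26 in CKD-Oxf against sham-Oxf, and at 0.51 ± 0.26 and -0.41 ± 0.18 averaged over gavage (log2, SE; adjusted p = 0.494 and 0.410 for the average, edgeR).

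Other genes of the same machinery were called at a share near that of all genes. Of 46 other G2 and mitosis genes tested, 0 passed in any comparison (edgeR). Of all genes 2.81% passed averaged over surgery, and at most 0.033% in the other comparisons. Averaged over surgery 28 of the 46 were above 0 with Oxf (median 0.08), beside 50.4% of all genes. At an unadjusted p under 0.05 were 4 of these and 1 of those below 0, beside 11.5% of all genes in each direction. Of 52 other replication genes, 2 passed averaged over surgery, beside 2.81% of all genes, and none in another comparison. Pole, the catalytic subunit of the leading-strand polymerase, was higher with Oxf by 0.74 ± 0.17 (log2, SE; adjusted p = 0.0305, edgeR), and passed in 19 of 28 fits that left out 1 library. Rpa3, the smallest subunit of the protein that binds single-stranded DNA, was lower by -1.28 ± 0.29 (adjusted p = 0.0240, edgeR), and passed in 26 of 28. Rpa3 ranged from 1.28 to 3.92 CPM in sham-vehicle, from 0.757 to 0.895 CPM in 4 sham-Oxf mice with 0 in sham-Oxf 1, from 1.146 to 3.902 in CKD-vehicle and from 0.954 to 2.96 in CKD-Oxf. Without sham-Oxf 1 it differed by -1.14 (adjusted p = 0.00927, edgeR). Of 28 other G1 and checkpoint genes only Cdk2, the partner of cyclins E and A, passed, at 0.34 ± 0.09 averaged over surgery (log2, SE; adjusted p = 0.0478, edgeR), beside 2.81% of all genes. It passed in 6 of 28 fits that left out 1 library, with adjusted p-values of 0.0135 to 0.123. None of the 3 passed with the clock score as a covariate, but 0 of 24273 genes passed in that fit, so this is not particular to them.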

How the data were processed

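Total RNA of ventricular myocardium was sequenced in 28 libraries. The authors deposited raw counts per gene, and those counts were used unchanged. Per the submitters' processing notes the tools were STAR 2.6.1d, featureCounts 1.6.3, FastQC 0.11.7 and MultiQC 1.9, with mm10. The annotation, the strand setting and the time of tissue collection are not given in the sources used here. Totals were 19798965 to 65378162 counts. Counts were scaled by TMM and tested with edgeR 4.0.16 (quasi-likelihood, filterByExpr with a minimum count of 10) in 1 fit of all 4 groups with 7 contrasts, and p-values were adjusted by Benjamini-Hochberg over 24273 genes. Fold changes are log2, with a prior count of 2 in log2 levels. Alternatives used DESeq2 1.42.0, limma 3.58.1, other scalings and filters, covariates, and leaving out libraries. The procedure was tested on simulated data. Levels per kilobase and positions used GENCODE annotation matched by identifier (45465 of 45513 rows). Correlations used exact permutations, or 100000 draws for 10 mice.

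Genes named were Wee1 and Cdkn1a in every comparison, members past an adjusted p of 0.05 or else the member with the smallest p, Mki67 and Top2a, the highest and lowest level in each role, and the 2 smallest passing p-values of each other list. The members and lists were chosen with earlier results of these data known. The labels do not pair mice across groups, and replicate numbers follow deposit order. The level of 1 marker gene is not reported here.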

Additional observations from a re-analysis of the deposited data

Results flagged for a closer look

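The spread of 1 gene in 1 group was checked 156 times, on log2 CPM and not on CPM. In 21 checks the lowest or highest mouse had a gap to the next mouse that, divided by the group's range, passed Dixon's 95% value. Chance alone gives about 5% of such checks, or 7.8. The gaps are not independent, since 12 of the 21 come from sham-Oxf 1, the library with the fewest detected genes.

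In sham-Oxf that library was lowest for the replication genes Mcm2 (gap share 0.894), Mcm5 (0.887) and Tyms (0.979), and for Ccne2 (0.949). It was also lowest for the mitosis genes Top2a (0.753), Cdk1 (0.820), Aurka (0.864), Kif20a (0.878), Nusap1 (0.783), Prc1 (0.722), Birc5 (0.849) and Cdc20 (0.914). CKD-Oxf 4 was lowest of its group for Plk1 (0.618), Kif20a (0.569), Kif23 (0.638) and Birc5 (0.666).

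The 2 libraries with the highest lymphoid markers were flagged on the high side, sham-Oxf 2 for Mki67 (0.762) and CKD-Oxf 6 for Ccne1 (0.615). Single low values were flagged in CKD-vehicle 1 for Nusap1 (0.699), sham-Oxf 3 for Kif11 (0.715) and sham-vehicle 5 for Aurkb (0.482).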

How the results depend on the processing

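The Wee1 call averaged over surgery was lost only with the clock score as covariate among the alternatives run. The count of members called in that contrast, 1 in edgeR, was 4 with DESeq2, 7 with limma-voom, 2 with DESeq2 size factors and with upper quartile scaling, 3 with 10 counts in every library and with a lymphoid covariate, 0 with the clock score, and 1 to 5 when 1 library was left out. In CKD-Oxf against CKD-vehicle, 0 became 1 with DESeq2, 9 with limma-voom, and 0 to 1 when 1 library was left out (1 without CKD-Oxf 4). In sham-Oxf against sham-vehicle, 0 became 1 with DESeq2, limma-voom and the 7SL covariate. The share of all genes called moved between settings too. Averaged over surgery it was 2.81% in edgeR, 8.79% with DESeq2 and 22% with limma-voom. Shares for the other scalings, filters, covariates and omissions are not given here, so those counts are not read as a result about the members.

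Differences that changed sign (log2) were few and none had passed. With the clock score, Wee1 was 0.24 in CKD-vehicle against sham-vehicle and 0.021 for surgery averaged over gavage, and Top2a was -0.063 in sham-Oxf against sham-vehicle. With the 7SL share, in that sham contrast, Mki67 was -0.18, Top2a -0.53 and Ccne1 -0.031, while Cdkn1a was -0.0046 in CKD-Oxf against sham-Oxf and Top2a -0.26 averaged over surgery. With the lymphoid covariate Top2a was 0.0027 in CKD-vehicle against sham-vehicle and -0.15 in the sham contrast. Without the 2 lymphoid-high libraries, in the sham contrast, Mki67 was -0.18, Top2a -0.64 and Ccne1 -0.62, and Top2a averaged over surgery was -0.28. Without those and sham-Oxf 1 they were -0.16, -0.25, -0.28 and -0.081, and the Cdkn1a interaction was 0.046. The lymphoid covariate and both exclusions were chosen after seeing the data. The cause of these shifts was not tested.

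Leaving out 1 library gave Wee1 interactions of -0.16 to 0.11 and Plk1 differences of -0.16 to 0.24 in CKD-vehicle against sham-vehicle. In the sham contrast it gave -0.16 to 0.64 for Mki67, -0.61 to 0.42 for Top2a and -0.60 to 1.04 for Ccne1, and averaged over surgery -0.12 to 0.40 for Top2a. The correlation of Wee1 with the clock score ran from 0.73 to 0.91 in sham-vehicle, where 6 of 10 omissions ended the call, and from -0.73 to 0.73 in CKD-Oxf. That of Cdkn1a ran from -0.71 to 0.32 in CKD-vehicle and from -0.89 to 0.78 in CKD-Oxf. It was 0.014 in CKD-Oxf with upper quartile scaling, and with Arntl alone 0.15 in CKD-vehicle and 0.15 in CKD-Oxf. Depth limits the mitosis genes with few counts, such as Ccnb1 (292 counts over all libraries) and Bub1 (298). Top2a, Ccne1 and Rpa3 had no value under the filter of 10 counts in every library. No paired analysis was possible because the labels give no number that ties mice across groups.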
